A study of Mus musculus with 2 samples.

Results

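The genes described here encode proteins by which bone cells sense and pass on mechanical load. They are the channels *Piezo1* and *Trpv4*, the polycystins *Pkd1* and *Pkd2*, connexin 43 (*Gja1*), pannexin 3 (*Panx3*), the integrin subunits *Itgb1*, *Itgav* and *Itgb3*, and cyclooxygenase 2 (*Ptgs2*). The 10 genes were chosen by name as known mechanosensing genes, with earlier results of these data known. The authors had already reported *Gja1* as up-regulated in the Loaded section. All 10 genes were found by symbol, each with 1 entry, among the 19465 genes measured. Their unique molecular identifiers (UMIs, 1 for each captured molecule) were summed over the bone spots and over the other spots of each section, and were read at equal depth as UMIs per 10000 total UMIs of the region.

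Bone adapts to load because strain and fluid flow around osteocytes and osteoblasts are turned into signals inside the cells. Stretch-gated and polycystin channels admit calcium, integrins tie the cytoskeleton to the matrix and gather kinases at focal adhesions, and connexin 43 forms the gap junctions and hemichannels through which osteocytes and osteoblasts exchange small molecules. Cyclooxygenase 2 makes the precursor of prostaglandin E2, which bone cells release after strain.

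Expression was measured with the Visium assay for formalin-fixed, paraffin-embedded tissue, in which probe pairs for each gene are captured on a grid of spots 100 μm apart, in 1 femur section from a Control mouse and 1 from a Loaded mouse. Both were female bone cell reporter (BCR) mice, in which fluorescent proteins mark the osteoblast gene *Ibsp* and the osteoclast gene *Acp5*, and both received a femoral osteotomy under an external fixator at 12 weeks of age and were killed at 17 weeks. From week 3 to week 5 after surgery the Loaded mouse received individualized cyclic loading through the fixator, and the Control mouse received sham-loading. Both were killed hours after the final session, so responses before that time were not measured. Both also had the same analgesia before and after surgery and isoflurane anesthesia. Each condition was 1 section of 1 mouse and spots of a section are not replicates, so no test between conditions was possible, no p-value is given, and the intervals (95%, exact) cover counting error only.

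Bone spots were those the authors marked on the histology between the middle pins, 131 in the Control section and 146 in the Loaded section, and all of them were found. The other spots numbered 1767 and 1285 after the authors' filter and included muscle, marrow and spots rich in osteoblast genes beyond the marked region. Muscle genes took 30.3% of the UMIs of other spots in the Control section and 18.6% in the Loaded section. Every comparison of the sections that uses other spots thus also holds this difference in tissue. Bone regions held 557259 and 409020 UMIs and other spots 8426953 and 4499787, and 557 barcodes of the common spot grid occurred in both sections. Osteoblast genes took 2.03% of the UMIs of Control bone and 6.63% of Loaded bone (11 genes measured, none at 0), osteocyte genes 0.00933% and 0.0802% (6 genes, *Fgf23* and *Dkk1* at 0 in Control), and osteoclast genes 0.390% and 0.489% (9 genes, none at 0). Of the 11305 osteoblast-list UMIs in Control bone, *Col1a1* held 4152 and *Col1a2* 6526, and of the 27100 in Loaded bone 8503 and 16387. The osteoblast share was thus mostly a share of type I collagen. Of the osteoclast list, *Mmp9* had 427 UMIs in Control bone and 644 in Loaded bone, *Ctsk* 1025 and 935, and *Acp5* 626 and 348. Muscle genes took 16.2% and 8.51% (22 genes, none at 0), so that the bone spots of both sections also captured RNA of muscle. A spot holds several cells, and more cells of a type cannot be told apart from more RNA per cell.

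In bone, *Gja1* was 4.32-fold higher and *Trpv4* 2.61-fold higher in the Loaded section than in the Control section. The other 5 members with at least 10 UMIs over both bone regions (*Piezo1*, *Pkd2*, *Itgb1*, *Itgav* and *Itgb3*) lay between 0.884 and 1.52 times their Control level, and the interval of each included equal levels. *Pkd1*, *Panx3* and *Ptgs2* had 3 to 8 UMIs over both regions and could not be ranked at this depth. Past a 2-fold ratio were thus 2 of 7 members in the higher direction and 0 in the lower. Over all 10003 genes with enough UMIs these shares were 13.4% higher and 7.87% lower, and the median log2 ratio was 0.14 over all genes and 0.45 over the 7 members. By total UMIs these were 1340 genes higher and 787 lower, and with TMM factors 959 and 1120, where *Gja1* was at 1.93.

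**Figure D1:**
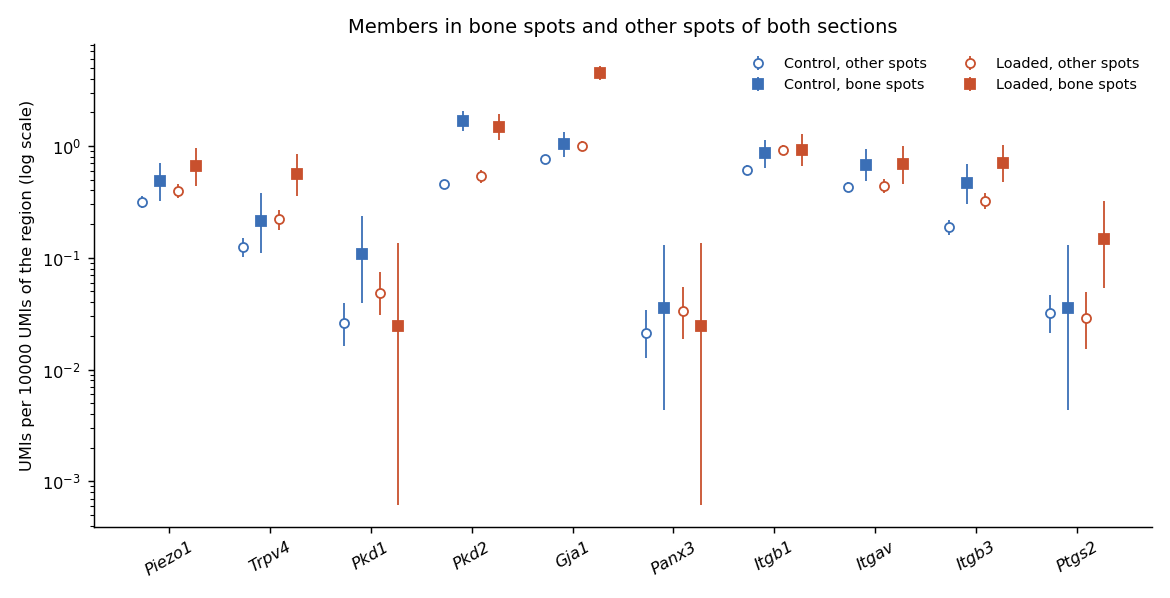
UMIs per 10000 UMIs of the region (log scale) for the 10 genes in other spots (open circles) and bone spots (filled squares) of the Control section (blue) and the Loaded section (red), with exact 95% Poisson intervals. *Gja1* in Loaded bone, at 4.50, stood above its 3 other levels, which lay between 0.763 and 1.04.

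*Piezo1* (GRCm38, chr8:122481698-122551329, minus strand) encodes the large mechanically gated cation channel that opens when the membrane is stretched. It had 27 UMIs in Control bone (0.485 per 10000) and 27 in Loaded bone (0.660 per 10000). The log2 ratio was 0.45, with an interval from -0.38 to 1.27, so a difference was not detectable at this depth. Its 4 blocks, made by cutting each bone region along the axis of the shaft and again across it, ranged from 0.345 to 0.632 per 10000 in Control bone and from 0.358 to 1.05 in Loaded bone. The blocks of the sections overlapped. In other spots *Piezo1* was counted 268 times in the Control section (0.318 per 10000) and 178 times in the Loaded section (0.396), and bone lay above other spots by a log2 ratio of 0.61 (interval -0.02 to 1.18) and 0.74 (0.10 to 1.33).

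*Trpv4* (chr5:114622152-114658421, minus strand) encodes a calcium-permeable channel that responds to swelling and fluid flow and is used by osteoblasts and chondrocytes. It had 12 UMIs in Control bone (0.215 per 10000) and 23 in Loaded bone (0.562 per 10000), a log2 ratio of 1.38 (interval 0.32 to 2.53). The blocks of Control bone gave 0.0984, 0.285, 0.492 and 0.0706 per 10000 (upper left, upper right, lower left and lower right), and those of Loaded bone gave 0.667, 0.985, 0.294 and 0.221. The lower left block of Control bone thus lay above the lower blocks of Loaded bone, and 18 of the 23 Loaded UMIs came from the upper blocks. The ratio was below 2-fold with equal weight for every spot (0.95), in bone spots with a muscle share under 5% (0.63), without the upper right block of Loaded bone (0.91) and without the upper left block of Control bone (0.99), and it was 2.22 without the lower left block of Control bone. Per UMI of the osteoblast genes, a choice made after the values were seen, it was -0.32 (interval -1.39 to 0.82). In other spots *Trpv4* was at 0.125 per 10000 in the Control section (105 UMIs) and 0.220 in the Loaded section (99 UMIs), a log2 ratio of 0.82 (interval 0.41 to 1.23), where the median of all genes was 0.42. Equal weight for every spot turned this value to -0.23.

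*Pkd2* (chr5:104459450-104505819, plus strand) encodes polycystin 2, the cation channel that pairs with polycystin 1 in the primary cilium and the endoplasmic reticulum. It was bone-rich in both sections. Control bone held 94 UMIs (1.69 per 10000) and Control other spots 382 (0.453), a 3.72-fold difference with an interval from 2.94 to 4.67. With scran size factors over all spots, TMM factors and equal weight the Control log2 ratio was 1.34, 1.30 and 1.31, all below that interval. Loaded bone held 61 UMIs (1.49 per 10000) and Loaded other spots 240 (0.533), a 2.80-fold difference with an interval from 2.08 to 3.72. Between the sections, *Pkd2* in bone differed by a log2 ratio of -0.18 (interval -0.67 to 0.30). The blocks of Control bone spread from 0.591 (upper left) through 1.28 and 1.69 to 3.46 per 10000 (lower right), whereas those of Loaded bone lay within 1.24 and 1.77. The lower right block of Control bone carried 49 of its 94 UMIs, and without that block the Loaded over Control log2 ratio was 0.46. In bone spots with a muscle share under 5% it was -1.31.

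*Pkd1* (chr17:24549834-24596508, plus strand), which encodes the large receptor-like partner of polycystin 2, was sparse, with 6 UMIs in Control bone and 1 in Loaded bone, each in a separate spot. The ratio of these sums is on the log2 scale -2.14 with an interval from -7.66 to 0.90. Other spots had 22 UMIs in either section. In the Control section bone stood 4.12-fold above other spots (interval 1.37 to 10.5), and in the Loaded section the 1 UMI gave 0.5001-fold with an interval from 0.0121 to 3.09. The depth does not set these apart.

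*Gja1* (chr10:56377330-56402513, plus strand) encodes connexin 43, the main gap junction protein of osteoblasts and osteocytes. It had 58 UMIs in Control bone (1.04 per 10000) and 184 in Loaded bone (4.50 per 10000), although Loaded bone had fewer UMIs in total. The ratio was 4.32 with an interval from 3.20 to 5.91, which exceeded the ratio of 98.4% of all genes. Control blocks gave 0.738, 0.854, 0.703 and 1.91 per 10000 (upper left, upper right, lower left and lower right) from 15, 6, 10 and 27 UMIs. Loaded blocks gave 6.77, 3.58, 4.71 and 2.76 per 10000 from 71, 40, 48 and 25 UMIs. Every Loaded block thus lay above every Control block, as for 4.77% of all genes. None of the 7 genes with enough UMIs had every Loaded block below every Control block, beside 2.21% of all genes. In the Control section the lower right block was highest, and in the Loaded section it was lowest. Blocks were named within each section, so a name need not mark the same side or end of the femur in both.

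**Figure D2:**
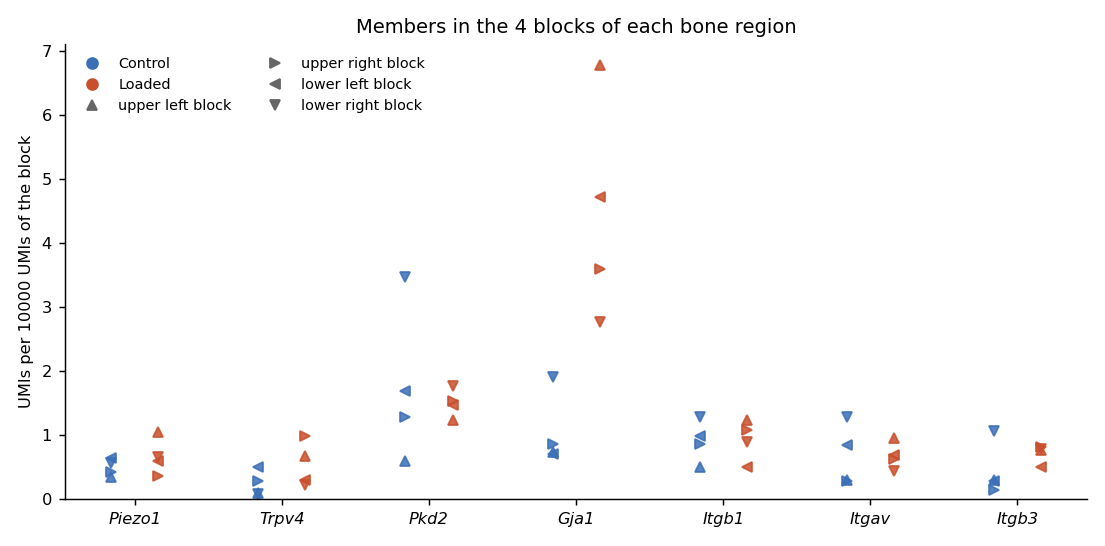
UMIs per 10000 UMIs in the 4 blocks of each bone region (triangles, 1 for each block) for the 7 genes with at least 10 UMIs over both bone regions, in the Control section (blue) and the Loaded section (red). The *Gja1* blocks did not overlap (0.703 to 1.91 against 2.76 to 6.77), whereas the blocks of the other 6 genes did.

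More Loaded than Control bone spots held *Gja1*, and in both sections a few spots held many of its UMIs. Of 131 Control bone spots, 91 had no *Gja1* UMI, 5 had 3 or more, and the highest had 4. Of 146 Loaded bone spots, 68 had none, 22 had 3 or more, and the highest had 14. The 10 highest spots held 27 of the 58 UMIs in Control bone (46.6%) and 69 of the 184 in Loaded bone (37.5%). After every spot was thinned to 1000 UMIs, *Gja1* was found in 12.2% of the 131 Control bone spots (interval 7.15 to 19.1%) and in 32.1% of 131 Loaded bone spots (24.2 to 40.8%), 15 Loaded spots being too shallow. In muscle-rich spots the thinned shares were 6.44% and 6.90%. Without thinning, the shares in bone were 30.5% and 53.4%, at median depths of 3478 and 2621 UMIs per spot, and those in muscle-rich spots 27.0% and 19.9%, at median depths of 4672 and 3443.5 UMIs.

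**Figure D3:**
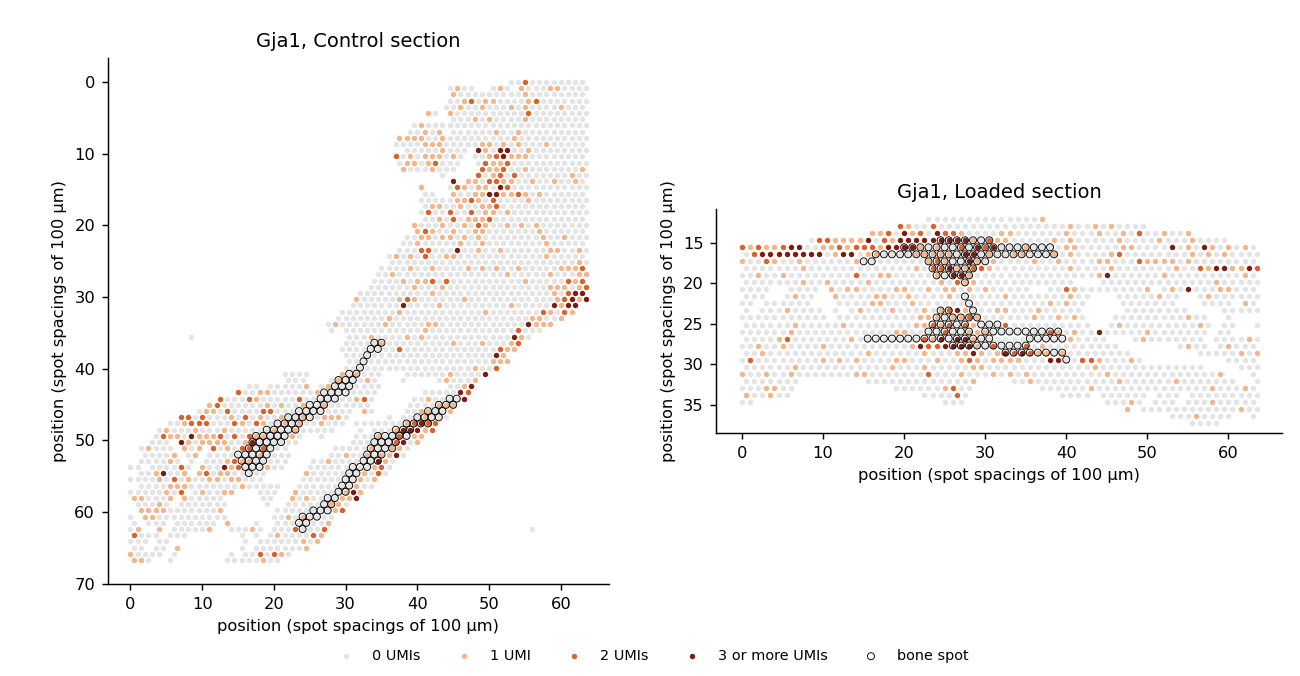
Spots of the Control section (left) and the Loaded section (right) at their positions in units of the 100 μm spot spacing, colored by the number of *Gja1* UMIs, with bone spots outlined in black. *Gja1* reached 3 or more UMIs in 22 outlined spots of the Loaded section and 5 of the Control section, and lines of positive spots also ran on from the outlined bone in both sections.

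Outside bone, *Gja1* differed less between the sections. Other spots had 643 UMIs in the Control section (0.763 per 10000) and 454 in the Loaded section (1.01 per 10000). The log2 ratio was 0.40 (interval 0.23 to 0.58) beside a median of 0.42 over all genes, and equal weight for every spot turned it to -0.21. Muscle genes took 30.3% of the UMIs of these spots in the Control section and 18.6% in the Loaded section, and their part was not tested. Bone exceeded other spots by a log2 ratio of 2.16 in the Loaded section (interval 1.90 to 2.41). In the Control section this ratio was 0.45 (0.03 to 0.84), and it was -0.11 with scran size factors over all spots, -0.15 with TMM factors, -0.25 with equal weight for every spot and -0.03 without the lower right block.

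The tissue around bone was divided by its genes into muscle-rich spots (at least 10% muscle UMIs), marrow-rich spots (those of the rest with the higher share of granulocyte and erythroid genes) and remaining spots. The remaining spots held 3.73% osteoblast UMIs in the Control section and 2.84% in the Loaded section, so they were not free of bone cells, and *Col2a1*, the main cartilage collagen, had 1401 UMIs there in the Control section and 33 in the Loaded section. *Gja1* in remaining spots was 2.54 per 10000 in the Control section and 2.51 in the Loaded section. In the Control section the order was remaining, bone (1.04), muscle-rich (0.542) and marrow-rich spots (0.489), and in the Loaded section bone (4.50), remaining, marrow-rich (0.775) and muscle-rich spots (0.601). Of the neighbors in either order, muscle-rich and marrow-rich spots were the pair whose intervals overlapped. Control remaining spots, richer in osteoblast genes than Control bone, were thus also higher in *Gja1*.

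By distance from bone, *Gja1* was highest in the nearest spots of the Loaded section, though below its level in bone, and in the Control section the nearest and the farthest spots had overlapping intervals. Other spots within 200 μm of a bone spot had 1.04 per 10000 in the Control section and 1.80 in the Loaded section. From 200 to 500 μm the levels were 0.483 and 0.736, from 500 to 1000 μm 0.506 and 1.00, and farther out 0.917 and 0.699. In spots with a muscle share under 10% these levels were, from the nearest to the farthest, 1.48, 0.937, 1.10 and 2.46 in the Control section and 2.22, 0.842, 2.39 and 1.68 in the Loaded section, so that the nearest spots were no longer the highest. At the last distance both sections also held lines of *Gja1*-positive spots that ran on from the bone spots, as the map of *Gja1* spots shows.

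Within bone, *Gja1* went with the osteoblast genes of a spot. The list of 11 osteoblast genes holds none of the 10 genes described here, and most of its UMIs in bone were *Col1a1* and *Col1a2*. In Control bone, spots above the median osteoblast share (1.49%) had 1.45 *Gja1* UMIs per 10000 and those below had 0.694, a log2 ratio of 1.06 (interval 0.25 to 1.91). In Loaded bone, where the median share was 5.07%, the levels were 6.29 and 2.29, a log2 ratio of 1.46 (0.95 to 1.99). *Gja1* also differed by other shares. Between osteoclast-high and osteoclast-low spots, a split chosen after the values were seen, its log2 ratio was 0.91 (0.10 to 1.76) in Control bone and -0.02 (-0.45 to 0.42) in Loaded bone. Between muscle-high and muscle-low spots it was -0.74 (-1.58 to 0.07) and -0.98 (-1.48 to -0.51). In bins of 2 to 4% and 4 to 8% osteoblast share, chosen after the values were seen, the sections were closer than over all bone spots. Spots with a share of 2 to 4% had 1.57 *Gja1* UMIs per 10000 in 32 Control spots and 2.68 in 35 Loaded spots, a log2 ratio of 0.77 (interval -0.18 to 1.74). Spots with 4 to 8% had 2.20 in 15 Control spots and 3.71 in 53 Loaded spots, a log2 ratio of 0.75 (-0.07 to 1.65).

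Spots with a share of 8% or more numbered 3 in Control bone and 39 in Loaded bone, with median shares of 8.29% and 10.8%. The Control spots held 2 *Gja1* UMIs at 1.56 per 10000, and the Loaded spots 102 of the 184 Loaded *Gja1* UMIs at 8.04. The log2 ratio in this bin was 2.36 (interval 0.47 to 5.43), so the sections were not closer there. Counted against the osteoblast genes themselves, also a choice made after the values were seen, *Gja1* was at 5.13 UMIs per 1000 osteoblast UMIs in Control bone and 6.79 in Loaded bone, a log2 ratio of 0.40 (interval -0.03 to 0.86). This scale lowers the Loaded over Control log2 ratio of every gene by the same 1.71, the log2 difference in the osteoblast share. A gene at equal levels per 10000 thus falls below 0 on it. The log2 ratio was for *Piezo1* -1.26 (-2.09 to -0.44), for *Pkd2* -1.89, for *Itgb1* -1.60, for *Itgav* -1.70 and for *Itgb3* -1.10. The intervals of these 5 genes lay below 0, which reflects the shift of the scale and is not a result about them. The *Gja1* ratio of 4.32 thus stood beside a 3.27-fold difference in the osteoblast share, and a muscle share 0.524 times as high in Loaded bone. The part of these shares in the *Gja1* result was not tested beyond these values. In bone spots with a muscle share under 5% the log2 ratio of *Gja1* was 2.22.

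**Figure D4:**
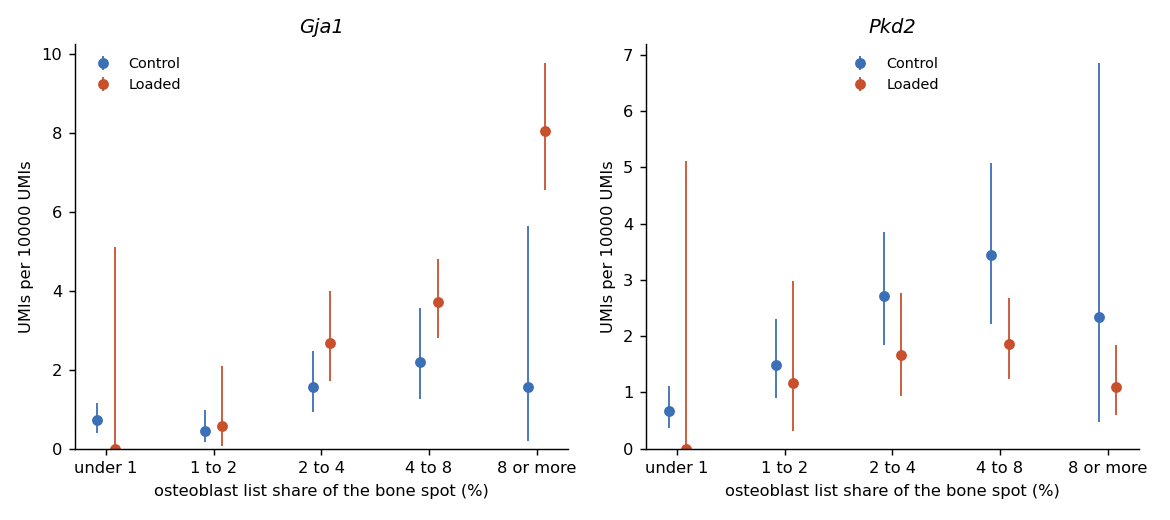
UMIs per 10000 of *Gja1* (left) and *Pkd2* (right) in bone spots binned by the share of osteoblast genes among their UMIs, for the Control section (blue) and the Loaded section (red), with exact 95% Poisson intervals. *Gja1* was 8.04 in the highest bin of Loaded bone and 1.56 in that of Control bone (3 spots), and *Pkd2* at 4 to 8% was 3.44 in Control and 1.85 in Loaded bone.

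Split at the median osteoblast share of each section, 1.49% in Control and 5.07% in Loaded bone, *Pkd2* differed between the sections. These splits thus cover different ranges of the share. In Control bone it was 2.67 per 10000 in the osteoblast-high spots and 0.860 in the osteoblast-low spots, a log2 ratio of 1.63 (interval 0.96 to 2.35). In Loaded bone the levels were 1.29 and 1.75, a log2 ratio of -0.44 (-1.22 to 0.33), and these intervals did not overlap. In bins of equal share, chosen after the values were seen, *Pkd2* rose in both sections from 1 to 8%. At 1 to 2%, 2 to 4% and 4 to 8% it was 1.49, 2.71 and 3.44 in Control bone. In Loaded bone it was 1.17, 1.67 and 1.85, with overlapping intervals. At 8% or more it was 2.34 in Control bone (3 UMIs) and 1.10 in Loaded bone (14 UMIs). At an osteoblast share of 4 to 8%, *Pkd2* was at 3.44 per 10000 in Control bone (25 UMIs) and 1.85 in Loaded bone (28 UMIs), a log2 ratio of -0.89 (-1.72 to -0.05), and at 2 to 4% the ratio was -0.69 (-1.69 to 0.24). Muscle shares moved with *Pkd2* in Control bone, where the muscle-high spots had 0.665 per 10000 and the muscle-low spots 2.65, and hardly in Loaded bone, where they had 1.40 and 1.57. Their part in the difference was not tested. Remaining spots had 1.70 *Pkd2* UMIs per 10000 in the Control section, level with Control bone within their intervals, and 0.830 in the Loaded section.

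*Panx3* (chr9:37659902-37669235, minus strand) encodes pannexin 3, a channel protein of osteoblasts and hypertrophic chondrocytes through which ATP leaves the cell. It had 2 UMIs in Control bone and 1 in Loaded bone, and 18 and 15 in other spots. After thinning it was in 0 of 131 Control bone spots, which by a limit of 3 counts allows a share of up to 2.29%, and in 1 of 131 Loaded bone spots. No ratio between the bone regions was formed from such sums.

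*Itgb1* (chr8:128685654-128733200, plus strand) encodes the beta 1 chain shared by most collagen and fibronectin receptors. It had 48 UMIs in Control bone (0.861 per 10000) and 38 in Loaded bone (0.929), a log2 ratio of 0.11 (interval -0.54 to 0.75). Outside bone it was at 0.615 per 10000 in the Control section (518 UMIs) and 0.929 in the Loaded section (418 UMIs). The log2 ratio was 0.60 (0.41 to 0.78), an interval that included the median of 0.42 over all genes. This ratio stayed above 0 under the 6 alternatives run (0.18 to 0.60). In the Loaded section *Itgb1* was thus as high outside bone as in it, with muscle-rich spots highest (1.03) and marrow-rich spots lowest (0.486). In the Control section the order ran from bone through remaining (0.716) and muscle-rich (0.614) to marrow-rich spots (0.452). The intervals of all neighbors in either order overlapped.

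*Itgav* (chr2:83724397-83806916, plus strand) encodes the alpha V chain that binds RGD motifs in vitronectin, osteopontin and bone sialoprotein. It had 38 UMIs in Control bone (0.682 per 10000) and 28 in Loaded bone (0.685), a log2 ratio of 0.01 with an interval from -0.75 to 0.75. Other spots had 0.430 and 0.440 per 10000 (362 and 198 UMIs). The order over tissues was the same in both sections, bone, remaining (0.674 and 0.662), muscle-rich (0.417 and 0.453) and marrow-rich spots (0.163 and 0.131), and marrow-rich spots lay below muscle-rich spots without overlap of their intervals. In Control bone the osteoblast-high spots had 1.14 *Itgav* UMIs per 10000 and the osteoblast-low spots 0.298 (log2 ratio 1.94, interval 0.82 to 3.20), and in Loaded bone 0.842 and 0.491 (0.78, -0.44 to 2.11).

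*Itgb3* (chr11:104608000-104670476, plus strand) encodes the beta 3 chain, which joins alpha V in the osteoclast vitronectin receptor and alpha IIb on platelets. It had 26 UMIs in Control bone (0.467 per 10000) and 29 in Loaded bone (0.709), a log2 ratio of 0.60 (interval -0.21 to 1.43). In Control bone 15 of the 26 UMIs came from the lower right block (1.06 per 10000, against 0.142 to 0.295 in the other blocks), whereas the Loaded blocks lay within 0.491 and 0.806. Without that Control block the Loaded over Control log2 ratio was 1.42, and in bone spots with a muscle share under 5% it was -0.75. When bone spots were split by osteoclast genes, a split chosen after the values were seen, the osteoclast-high spots of Control bone held 22 *Itgb3* UMIs and the osteoclast-low spots 4, a log2 ratio of 2.56 (1.00 to 4.55). In Loaded bone these were 22 and 7 UMIs, a log2 ratio of 1.22 (-0.05 to 2.69). Bone exceeded other spots 2.49-fold in the Control section (interval 1.58 to 3.78) and 2.20-fold in the Loaded section (1.42 to 3.30). The Control value was on the log2 scale 1.32, but 0.76 with scran size factors over all spots, 0.72 with TMM factors, -0.074 with equal weight for every spot and 0.50 without the lower right block. The Loaded value was 1.14, but 0.94 with scran, 0.78 with TMM, 0.96 by totals without muscle and erythroid genes and 0.68 with equal weight.

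*Ptgs2* (chr1:150100031-150108227, plus strand) encodes cyclooxygenase 2, the load-induced enzyme of prostaglandin synthesis. It had 2 UMIs in 2 spots of Control bone and 6 UMIs in 4 spots of Loaded bone (0.0359 and 0.147 per 10000). The ratio was 4.09 with an interval from 0.731 to 41.4. All 6 Loaded UMIs lay in osteoblast-high spots, 2 in each block but the lower right. In the Loaded section bone stood 5.08-fold above other spots, which had 13 UMIs (interval 1.58 to 14.3). In the Control section 14 of the 27 UMIs outside bone lay within 200 μm of a bone spot (0.133 per 10000), against 3 of 13 in the Loaded section (0.0295 per 10000).

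Across bone and other spots, 3 of the 10 genes stood past 2-fold in the Control section (*Pkd1*, *Pkd2* and *Itgb3*) and 5 in the Loaded section (*Trpv4*, *Pkd2*, *Gja1*, *Itgb3* and *Ptgs2*), all higher in bone and 0 lower. Of all genes, 23.5% were higher in bone in the Control section and 2.76% lower, and in the Loaded section 13.1% were higher and 4.99% lower. *Pkd2* was past 2-fold in both sections by total UMIs, with scran size factors over all spots, with TMM factors and with equal weight for every spot, and *Itgb3* by total UMIs but by none of the other 3. Between the sections outside bone, 0 of 10 passed 2-fold in either direction, beside 15.9% of all genes higher and 2.15% lower. The median over all genes was 0.46 for bone over other spots in the Control section and 0.26 in the Loaded section, and scran size factors over all spots moved these medians to -0.09 and 0.06 and that of Loaded over Control outside bone to 0.05. On that scaling 1358 genes were past 2-fold higher in Control bone than in other spots and 1424 lower (3446 and 405 by total UMIs), 1179 and 1070 in the Loaded section (1811 and 691), and 1039 and 838 between the sections outside bone (2590 and 351). The 10 genes then counted 2 higher and 0 lower in Control bone, and 4 higher and 1 lower (*Pkd1*) in Loaded bone.

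**Figure D5:**
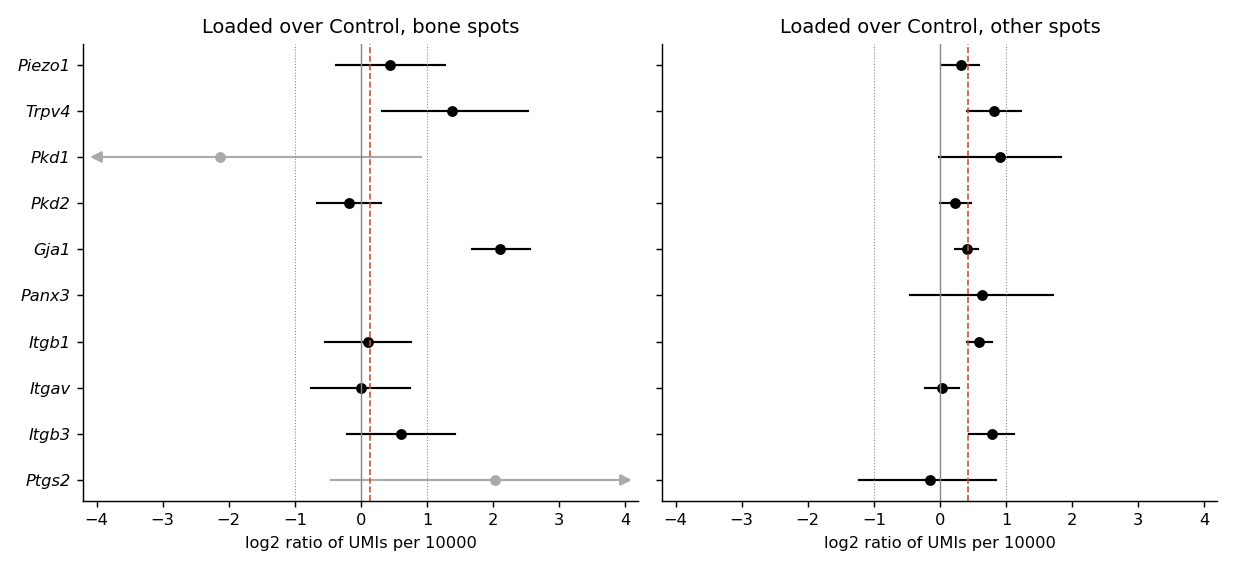
Log2 ratio of Loaded over Control in bone spots (left) and other spots (right) for each gene with its exact 95% interval, black with at least 10 UMIs over both regions and gray with fewer. The red dashed line is the median of all genes, dotted lines mark 2-fold, arrows mark intervals beyond the axis, and *Panx3* has no value in bone. *Gja1* in bone, at 2.11, had an interval (1.68 to 2.56) wholly past 2-fold.

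The partners of these proteins were read in 10 gene lists of 182 genes, of which 178 were measured and 118 had at least 10 UMIs over both bone regions. Of the 118, 20 were past 2-fold higher in Loaded bone (16.9%, beside 13.4% of all genes) and 12 lower (10.2%, beside 7.87%). No other stretch-activated channel with enough UMIs passed 2-fold (0 of 8, median log2 ratio -0.05), *Piezo2* and *Trpv2* among them at -0.27 and 0.61. Of the polycystin and primary cilium genes, 2 of 5 were higher (*Ift80* and *Tmem67*) and 0 lower, with a median of 0.45. *Ift80* and *Tmem67* had 7 Loaded UMIs each, and their intervals included equal levels. Of the other connexins and pannexins 17 of 20 had too few UMIs, and 1 of the remaining 3 was higher, *Gjc1* (connexin 45), with 13 UMIs against 4. Connexin 43 partners and junction genes had 0 of 9 past 2-fold, with a median of 0.19.

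Of the receptors and enzymes of extracellular ATP, 2 of 10 were higher (*P2rx1* and *P2ry6*) and 3 lower (*Entpd2*, *Nt5e* and *Adora2b*), with a median of -0.31. *P2ry6* (8 UMIs in Loaded bone against 3), *Nt5e* (4 against 11) and *Adora2b* (2 against 8) had intervals that included equal levels. *Entpd2*, an ectonucleotidase, had 15 UMIs in Loaded bone against 43 in Control bone, a log2 ratio of -1.07 (interval -2.03 to -0.20).

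The list of other integrin subunits also held *Itgbl1*, an integrin beta-like gene that is not a subunit. Of its genes 4 of 19 were higher (*Itga2b*, *Itga4*, *Itga10* and *Itgal*) and 4 lower (*Itga7*, *Itgb4*, *Itgb8* and *Itgbl1*), with a median of -0.10. *Itgal* (7 UMIs in Loaded bone against 3) and *Itgb8* (2 against 10) had intervals that included equal levels. *Itga10*, a collagen receptor chain, had 25 UMIs in Loaded bone and 5 in Control bone (log2 ratio 2.77, interval 1.36 to 4.51). *Itga2b*, the platelet and megakaryocyte chain, had 18 and 6 (2.03, 0.64 to 3.65), beside a 2.70-fold higher share of megakaryocyte and platelet genes, a list that holds it. *Itga7*, the laminin receptor chain of muscle, had 9 and 56 (-2.19, -3.39 to -1.16), beside the lower muscle share of Loaded bone. *Itgb4*, the hemidesmosome chain found also in Schwann cells, had 12 and 45 (-1.46, -2.52 to -0.52), where the share of Schwann cell genes was 0.0682% in Control bone and 0.0227% in Loaded bone. The part of these shares was not tested.

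Of 16 integrin ligands 5 were higher (*Spp1*, *Col1a1*, *Col1a2*, *Tnc* and *Dmp1*) and 3 lower (*Postn*, *Lamb1* and *Mfge8*), with a median of -0.53. *Spp1* (osteopontin) had 1174 UMIs in Loaded bone and 520 in Control bone, a log2 ratio of 1.62 (interval 1.47 to 1.77), and *Dmp1*, a mineral matrix protein of osteocytes, had 171 and 28, a log2 ratio of 3.06 (2.47 to 3.69). *Tnc* (tenascin C) had 243 and 118, a log2 ratio of 1.49, and *Col1a2* (type I collagen) was at 1.77. *Col1a1* and *Col1a2* are also in the osteoblast list and *Dmp1* in the osteocyte list.

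Of 23 focal adhesion and linker genes 19 stayed within 2-fold, with 3 higher (*Ptk2b*, *Src* and *Fermt3*), 1 lower (*Pxn*) and a median of -0.01. *Fermt3*, the kindlin of blood cells and osteoclasts, had 58 UMIs against 21 (log2 ratio 1.91, interval 1.17 to 2.71). Its Loaded blocks (1.21 to 1.57 per 10000) lay above its Control blocks (0.141 to 0.712), as for 4.77% of all genes. *Ptk2b* (Pyk2) had 20 UMIs against 10 and *Src* 35 against 22, both kinases of the osteoclast adhesion ring. Their log2 ratios were 1.45 and 1.12, and the blocks of the sections overlapped for both. *Pxn* (paxillin) had 12 UMIs in Loaded bone against 54, a log2 ratio of -1.72 (-2.76 to -0.80). Its Loaded blocks (0.191 to 0.393) lay below its Control blocks (0.427 to 1.34), as for 2.21% of all genes. Among other list genes with enough UMIs, the Loaded blocks of *Dmp1*, *Itga10* and *P2rx1* (11 UMIs against 1) also lay all above. Those of *Itga7* and *Ccn2* lay all below. Granulocyte genes took 0.118% of Control bone and 0.455% of Loaded bone, and their part in *Fermt3* was not tested.

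Of the prostaglandin genes 2 of 11 were higher and 0 lower, with a median of 0.39. *Ptgis*, prostacyclin synthase, had 67 UMIs against 30 (log2 ratio 1.61, interval 0.96 to 2.28), and *Tbxas1*, thromboxane synthase, 15 against 9 (1.18, -0.10 to 2.56). Among YAP and TAZ and their targets 1 of 14 was higher (*Tead2*), 1 lower (*Ccn2*), and the median was -0.13. *Tead2* had 7 UMIs in Loaded bone against 4, with an interval from -0.72 to 3.47. *Ccn2*, a matricellular YAP target, had 41 UMIs in Loaded bone and 656 in Control bone, a log2 ratio of -3.55 (-4.05 to -3.10).

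For the 6 genes with at least 50 UMIs over both bone regions, the genes most like each over 14 regions (4 blocks of each bone region and 3 tissue classes of each section) were sought among 10028 genes by Pearson's correlation of log2 levels, as a description, since the regions share their sections and depth. *Gja1* was most like *Alpl*, the alkaline phosphatase of osteoblasts (0.98), *Slc39a13*, a zinc transporter (0.94), and *Col1a2* (0.93), 2 of which are in the osteoblast list. *Pkd2* was most like *Ltbp3*, a latent TGF-beta binding protein (0.96), *Bbc3* (0.96) and *Glg1* (0.95). The genes most like *Itgb3* included *Runx2* (0.94) and *Marcksl1* (0.94), and those most like *Itgav* were *Rack1* (0.95), *Abl2* (0.94) and *S100a16* (0.94). *Itgb1* was most like *Plpp1* (0.95), and *Piezo1*, with *Ccnd1*, *Zfp821* and *Atp8b2*, had no gene above 0.90 by this measure. By Spearman's correlation *Alpl* (0.98) remained first for *Gja1*, followed by *Tle2* and *Copg1* (both 0.93), and the first gene was *Gli3* for *Pkd2* (0.95), *Mmp9* for *Itgb3* (0.94), *Abl2* for *Itgav* (0.96), *Plpp1* for *Itgb1* (0.90) and *Ehd4* for *Piezo1* (0.91).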

How the data were processed

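The authors sequenced Visium probe libraries of both sections, aligned and counted them with SpaceRanger 2.0.0 (mm10), and deposited raw UMI counts per gene and spot, without normalization, with spot positions. The values were checked to be whole numbers. Section images and image scale factors were not used, and bone spots came from the authors' barcode list. Spots needed at least 500 UMIs and 250 genes, which left out 64 Control and 5 Loaded spots. Probe counts were not scaled by length, so levels were compared within a gene.

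Sums over a region were divided by its total UMIs. Intervals (95%) were exact Poisson for levels, exact binomial for shares and exact conditional binomial for ratios. A ratio needed at least 10 UMIs over both regions to be counted and 2-fold to be called, a sum of 0 was set to 3 UMIs, and no ratio was formed when both sums were 3 or fewer. In bone over other spots, 787 and 672 genes whose bound pointed away from the limit stayed undecided: they were counted but not called. Muscle-rich spots had a muscle share of at least 10%, and marrow-rich spots had a granulocyte and erythroid share of at least 9.00%. Thinning kept 1000 UMIs per spot. Likeness used log2(UMIs per 10000 + 0.01) of genes with at least 100 UMIs, for members with at least 50 UMIs in bone, and 1 of the genes it gave is not reported here. Genes named in a list were at most 4 with at least 20 UMIs in bone and past 2-fold, largest first, besides the names of called genes, *Piezo2* and *Trpv2*, named after their values were seen.

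Marker lists covered osteoblasts, osteocytes, osteoclasts, chondrocytes, muscle, erythroid cells, granulocytes, megakaryocytes, macrophages, endothelium, tendon, adipocytes and Schwann cells. The shares not given in the text were in Control and Loaded bone 0.0100% and 0.0132% for chondrocytes, 2.47% and 3.05% for erythroid cells, 0.0935% and 0.101% for macrophages, 0.0513% and 0.0545% for endothelium, 0.382% and 0.179% for tendon, and 0.0370% and 0.0523% for adipocytes. The members and lists were chosen with earlier results of these data known. Coordinates came from GENCODE M21 (99.9% of 19465 identifiers matched).

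Alternatives were scran 1.30.0 size factors over all or bone spots, TMM factors (edgeR 4.0.16, R 4.3.3), totals without abundant or muscle and erythroid genes, equal weight for every spot, no spot filter, bone spots with less muscle, other limits, and each block left out. Other steps used Python 3.11.15, numpy 2.4.6, scipy 1.17.1, pandas 2.3.3 and matplotlib 3.10.9, and were tested on simulated counts. The likelihood ratio test over spots that the authors ran was not repeated, since spots are not replicates.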

Additional observations from a re-analysis of the deposited data

Results flagged for a closer look

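Effects of opposite sign were seen for 3 genes, and none of these differences between effects was tested, since each rests on 1 section per condition. For *Pkd2*, the log2 ratio of Loaded over Control was -0.18 in bone and 0.23 in other spots, where the medians of all genes were 0.14 and 0.42. With equal weight for every spot the *Pkd2* ratio in other spots was negative, so its sign depended on the scaling. For *Pkd1*, the log2 ratio of bone over other spots was 2.04 in the Control section and -0.9998 in the Loaded section, where bone held 1 UMI. For *Panx3*, it was 0.75 in the Control section and -0.45 in the Loaded section, from 2 and 1 bone UMIs. The intervals overlapped within each of these pairs.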

How the results depend on the processing

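Each condition was 1 section of 1 mouse, the section stands for both mouse and treatment, and the intervals leave out the spread between mice. *Pkd1*, *Panx3* and *Ptgs2* were limited by depth, with at most 6 UMIs in a bone region. No paired analysis was possible because each condition had 1 section. Of 455 log2 ratios of the members under alternatives, 358 kept their side of the 2-fold limit and a value within their interval. Ratios that had not passed the limit could change sign within their interval and still be counted there. *Itgav*, Loaded over Control in bone, went from 0.01 to -0.39 in bone spots with a muscle share under 10%, within its interval. Of the rest, 71 moved outside their interval. Some of these also crossed the limit, among them *Gja1* in bone per UMI of the osteoblast list, which fell back from it. Within their interval 12 passed the limit and 12 fell back from it. Another 2 that had passed it changed sign. The causes were not tested unless the alternative itself used fewer genes or spots.

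Loaded over Control in bone, *Gja1* stayed past 2-fold under all 8 alternatives of scaling, weighting and spots run (log2 ratio 1.93 to 2.22) and with each block left out (1.84 to 2.59). Under choices added after the values were seen it was 0.40 per UMI of the osteoblast list and 0.77 and 0.75 in spots with an osteoblast share of 2 to 4% and 4 to 8%. At a share of 8% or more, with 2 Control UMIs, it was 2.36. *Trpv4* was at 0.95 with equal weight for every spot, 0.63 in bone spots with a muscle share under 5% and -0.32 per UMI of the osteoblast list, and from 0.91 to 2.22 with a block left out. The number of members past the limit was 1 with equal weight, with a muscle share under 5%, with at least 50 UMIs or with a limit of 3-fold, and 1 to 3 with a block left out. A muscle share under 5% put 1 member (*Pkd2*) past the limit in the lower direction, and a minimum of 1 UMI put 1 (*Pkd1*) there. Genes past the limit numbered 720 higher with a muscle share under 5%, 2288 higher and 1255 lower with at least 1 UMI, 326 and 237 with at least 50 UMIs, 2776 and 1741 at 1.5-fold, and 424 and 242 at 3-fold.

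Loaded over Control in other spots, the genes past the limit numbered 1039 higher and 838 lower with scran size factors over all spots, 910 and 931 with TMM factors, 1469 and 600 without the 20 most abundant genes, 1604 and 556 without muscle and erythroid genes, and 594 and 1205 with equal weight. They were 1251 and 144 with at least 50 UMIs, 6266 and 910 at 1.5-fold and 569 and 87 at 3-fold, and 566 were lower with at least 1 UMI. At 1.5-fold 5 members were higher. With equal weight the log2 ratio was below 0 for *Piezo1* (-0.25), *Trpv4* (-0.23), *Pkd2* (-0.58), *Gja1* (-0.21), *Panx3* (-0.70) and *Itgb3* (-0.01), while the median of all genes went from 0.42 to 0.01.

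Bone over other spots in the Control section, *Pkd2* was at 1.34, 1.30 and 1.31 with scran, TMM and equal weight, and from 1.26 to 2.35 with a block left out. With a muscle share under 10% and under 5% *Pkd2* was at 2.53 and 2.56. This limit on muscle was set for bone spots alone, and it moved the median of all genes from 0.46 to 0.78 and 0.88. *Itgb3* was at 0.76, 0.72 and -0.074 with scran, TMM and equal weight, at 2.89 with a muscle share under 5%, and from 0.50 to 1.59 with a block left out. Genes past the limit numbered 1358 higher and 1424 lower with scran, 1173 and 1590 with TMM, 2249 and 779 without the 20 most abundant genes, 2295 and 738 without muscle and erythroid genes, 1518 and 1357 with equal weight, 5384 and 727 with a muscle share under 10%, 6166 and 1045 at 1.5-fold and 1303 and 112 at 3-fold. They were 1876 higher with at least 50 UMIs, 933 lower with a muscle share under 5%, and 2723 to 5236 higher and 418 to 640 lower with a block left out. Members higher numbered 5 and 6 with a muscle share under 10% and under 5%, where 5384 and 4973 of all genes were higher, against 3446 by the main setting. They numbered 7 at 1.5-fold, where 6166 of 14683 genes were higher. With a block left out they numbered 3 to 5, where 2723 to 5236 genes were higher.

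Bone over other spots in the Loaded section, *Trpv4* was at 0.996 with TMM factors and from 0.88 to 1.58 with a block left out. *Pkd2* was at 1.02 with a muscle share under 5%. *Gja1* was at 1.80 with TMM factors, 2.50 and 2.68 with a muscle share under 10% and under 5%, and 1.88 to 2.31 with a block left out. The limit on muscle was again set for bone spots alone, and it moved the median of all genes from 0.26 to 0.34 and 0.40. *Itgb3* was at 0.94 with scran, 0.78 with TMM, 0.96 without muscle and erythroid genes and 0.68 with equal weight. Genes past the limit numbered 1179 higher and 1070 lower with scran, 822 and 1468 with TMM, 3972 and 1634 at 1.5-fold and 508 and 180 at 3-fold. They were 2784 higher with a muscle share under 5%, 3091 with at least 1 UMI and 756 with at least 50 UMIs, and 1045 lower without muscle and erythroid genes. Members higher numbered 3 with TMM factors and 2 at 3-fold, and 1 member (*Pkd1*) was lower with scran, with TMM, without the 20 most abundant genes, without muscle and erythroid genes and at 1.5-fold.

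Genes of the pathway lists past the limit in the lower direction numbered 25 with a muscle share under 10%, against 12 over all bone spots. Of all genes, 1054 were then lower and 1006 higher, against 787 and 1340 over all bone spots. Of 320 shares of spots with a UMI under other depths of thinning 183 lay within the main interval, as did 89 of 120 levels in tissue classes and 32 of 80 levels by distance in spots with a muscle share under 10%.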
